A study of Mus musculus with 12 samples.

Results

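The sites described here are the TET2 sites that lay inside gene bodies and were found in both cell types of the study. They were chosen from the 2 deposited site lists, 1 of acute myeloid leukemia (AML) cells and 1 of immortalized hematopoietic cells, called myeloid cells here. Overlapping rows of each list were merged on chromosomes 1 to 19. A merged AML site was kept if a myeloid site overlapped it by 1 bp or more, if its midpoint lay inside a protein-coding gene, and if that midpoint lay over 1 kb from the start and end of every protein-coding gene. This left 2227 of the 6778 merged AML sites (32.9%, exact 95% interval 31.7 to 34.0), which were 45.8% of the 4865 AML sites shared with the myeloid list of 18533 sites. They are called shared gene-body sites. The overlap of the lists and the position relative to genes chose them, so neither is a finding.

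TET2 was located by chromatin immunoprecipitation followed by sequencing, with a rabbit antibody raised against the N-terminal part of the protein. The myeloid cells carried the retroviral transgene MigR1-AML1-ETO and were either Tet2fl/fl (wild type) or Tet2-/-. The AML cells carried no transgene and had the genotype given as Npm1+/cA; Fl3+/ITD, either alone (wild type) or with Tet2-/-. Each of these 4 groups had 2 antibody libraries, and each cell type had 1 input and 1 IgG library of the wild-type genotype. Both cell types were grown with the same cytokines, stem cell factor at 50 ng/ml and interleukins 3 and 6 at 10 ng/ml. For all libraries the cells were crosslinked with 2 mM DSG and 1% formaldehyde. The sources used here do not give whether a culture was a clone or a pool of animals. The lists hold positions alone, without heights, p-values or library values, so the depth behind a site is unknown and no site has a replicate error. Intervals and tests below count sites, which lie in clusters and are not independent.

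TET2 oxidizes the methyl group of 5-methylcytosine, a step towards removing DNA methylation. It lacks the zinc finger by which its relatives TET1 and TET3 bind CpG-containing DNA, and it is brought to many places by transcription factors. Introns of mammalian genes hold many enhancers, of the gene itself or of a neighbour, and some also hold alternative transcription starts. A TET2 site in a gene body therefore need not act on that gene.

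Some shared gene-body sites covered such an internal start, and there the DNA can be read. The RefSeq table of start windows (build GRCm38.p6, the coordinates of mm10) gives 300 bases per start, from 250 before to 50 after it. It has windows for 1336 of the 1657 genes that held a shared gene-body site. Of the sites, 60 touched a start window, 42 of these a window of the gene they lay in and 20 a window of a long noncoding RNA, and 44 held a whole window. Below are 7 of these windows, chosen after their sequences were seen because they come from genes of blood cells or signalling or show a contrast. Capitals mark matches, on either strand, to the core motifs of RUNX factors (TGTGGT), ETS factors (AGGAAG) and C/EBP factors (TTGCNNAA), which direct myeloid gene expression.
Elmo2: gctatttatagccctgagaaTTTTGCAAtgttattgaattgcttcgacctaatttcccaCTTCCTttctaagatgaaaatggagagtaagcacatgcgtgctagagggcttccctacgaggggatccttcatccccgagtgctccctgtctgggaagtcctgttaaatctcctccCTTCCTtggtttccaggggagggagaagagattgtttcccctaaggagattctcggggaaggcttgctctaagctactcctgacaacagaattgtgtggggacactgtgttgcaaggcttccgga
Fgd3: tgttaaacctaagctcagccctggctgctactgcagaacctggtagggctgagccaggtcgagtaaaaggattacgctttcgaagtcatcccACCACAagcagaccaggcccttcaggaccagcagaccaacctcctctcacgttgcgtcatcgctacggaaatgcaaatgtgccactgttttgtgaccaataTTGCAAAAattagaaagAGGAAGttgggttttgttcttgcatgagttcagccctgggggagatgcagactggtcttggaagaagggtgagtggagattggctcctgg
Cd300lf: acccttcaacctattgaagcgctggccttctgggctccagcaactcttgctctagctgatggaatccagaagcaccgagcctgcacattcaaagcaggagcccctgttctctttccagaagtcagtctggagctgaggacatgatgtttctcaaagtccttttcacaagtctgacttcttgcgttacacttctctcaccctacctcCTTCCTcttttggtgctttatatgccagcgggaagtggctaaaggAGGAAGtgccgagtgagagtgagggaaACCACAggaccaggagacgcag
Cd33: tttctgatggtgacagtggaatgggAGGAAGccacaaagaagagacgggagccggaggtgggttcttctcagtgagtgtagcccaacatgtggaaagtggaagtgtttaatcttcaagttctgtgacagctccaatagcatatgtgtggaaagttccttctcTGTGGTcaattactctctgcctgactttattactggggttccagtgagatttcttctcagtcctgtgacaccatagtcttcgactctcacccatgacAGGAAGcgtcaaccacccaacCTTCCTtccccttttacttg
Il16: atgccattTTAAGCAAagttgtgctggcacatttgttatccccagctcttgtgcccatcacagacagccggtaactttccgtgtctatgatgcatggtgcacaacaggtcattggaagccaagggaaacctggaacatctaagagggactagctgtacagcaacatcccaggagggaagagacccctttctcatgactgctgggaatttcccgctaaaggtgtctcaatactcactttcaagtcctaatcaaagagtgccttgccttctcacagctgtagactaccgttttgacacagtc
Pparg: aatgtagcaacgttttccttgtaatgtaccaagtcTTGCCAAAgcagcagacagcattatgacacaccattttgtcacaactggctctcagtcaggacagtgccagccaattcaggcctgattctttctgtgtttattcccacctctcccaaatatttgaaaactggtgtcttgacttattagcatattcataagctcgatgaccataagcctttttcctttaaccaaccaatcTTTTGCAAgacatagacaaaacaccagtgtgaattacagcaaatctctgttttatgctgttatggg
Sgms2: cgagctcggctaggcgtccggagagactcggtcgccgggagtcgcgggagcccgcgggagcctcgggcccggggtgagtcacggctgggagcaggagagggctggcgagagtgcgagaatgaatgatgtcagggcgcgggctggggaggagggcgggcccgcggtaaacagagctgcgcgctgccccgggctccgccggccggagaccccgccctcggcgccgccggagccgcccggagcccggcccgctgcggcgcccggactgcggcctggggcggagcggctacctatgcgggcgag
Elmo2 encodes a partner of RAC activators and Fgd3 an exchange factor for small GTPases. The Elmo2 window (chr2:165320777-165321076, minus strand) started 5.65 kb inside the gene and had 2 ETS matches and 1 C/EBP match. The Fgd3 window (chr13:49309159-49309458, minus strand) lay 11.1 kb from the gene start and held 1 match to each of the 3 motifs. Cd300lf, an inhibitory receptor of myeloid cells, had 1 RUNX and 2 ETS matches at chr11:115133943-115134242 (minus strand), 1.38 kb from the gene start. Cd33, a sialic acid receptor of myeloid cells, had 1 RUNX and 3 ETS matches at chr7:43533122-43533421 (minus strand), 4.25 kb from the gene start. In Il16, which encodes a leukocyte attractant, the window lay 90.5 kb from the gene start, at chr7:83655446-83655745 (minus strand), and held 1 C/EBP match. Pparg encodes a nuclear receptor of fat cells and macrophages, and its window 61.2 kb from the gene start (chr6:115421816-115422115, plus strand) held 2 C/EBP matches. Sgms2, a sphingomyelin synthase gene, stands for the contrasting kind: its window at chr3:131490181-131490480 (minus strand) had none of the 3 motifs, 44 CpG and 77.7% G and C. The Sgms2 window lay 1.21 kb from the gene start, close to the 1 kb limit of the rule. The Il16 and Elmo2 windows had 4 and 6 CpG.

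Among the 44 whole windows, 36.4% held the C/EBP motif (exact 95% interval 22.4 to 52.2). The same motif was in 10.9% of all 31365 windows on the chromosomes analysed and in 10.8% of 5759 windows that lay in gene bodies and touched no TET2 site. It was in 11.2% (8.21 to 14.9) of 374 windows inside myeloid-only gene-body sites, meaning sites of the same location class without an AML partner. The RUNX motif was in 27.3% of the 44 windows (15.0 to 42.8), an interval that includes the 16.7% of all windows. The interval also includes the 18.5% of gene-body windows touching no site. The 13.6% of windows inside myeloid-only gene-body sites lies below it, but the interval of that share (10.3 to 17.5) overlaps it. The ETS motif was in 54.5% of the 44 windows (38.8 to 69.6), against 35.1%, 36.1% and 40.1% of these sets in turn. The ETS interval includes the last of these. The GATA motif AGATAA was in 6.82% (11.2% of all windows), the AP-1 motif TGANTCA in 9.09% (7.85%) and the E-box CAGNTG in 50.0% (51.4%). Windows inside shared gene-body sites had a median of 6 CpG and 51.3% G and C, close to the 5 CpG and 51.3% of gene-body windows that touched no site. Windows inside myeloid-only gene-body sites had 21.0 CpG and 61.0% G and C. These shares describe the reference sequence at internal starts only. The sequence of the other sites was not analysed here, and the part of base composition in the motif shares was not tested.

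**Figure D1:**
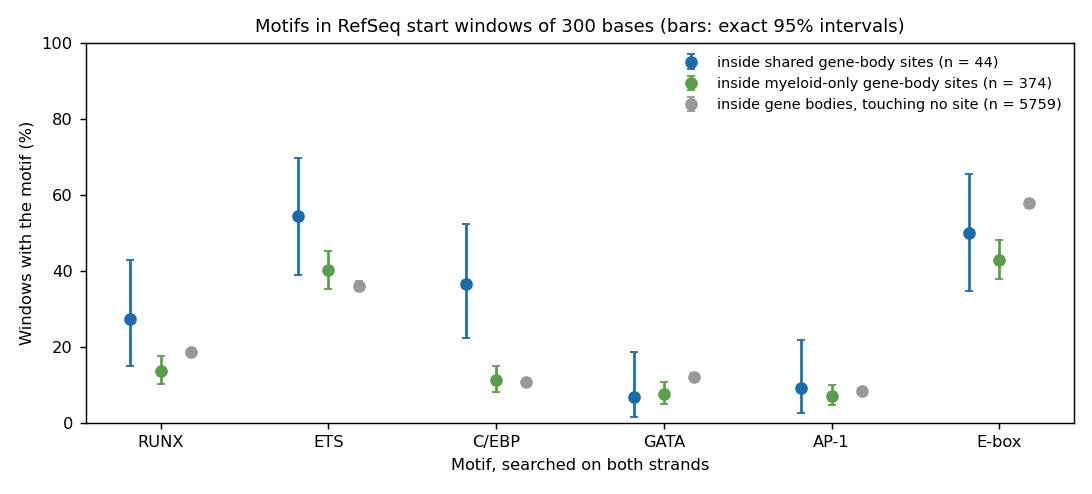
Share of RefSeq start windows of 300 bases that hold each motif (vertical axis, percent) for windows wholly inside shared gene-body sites (blue, n = 44), inside myeloid-only gene-body sites (green, n = 374) and in gene bodies but touching no site (grey, n = 5759); bars are exact 95% intervals. The C/EBP motif stands at 36.4% in the first set and at 11.2% and 10.8% in the others.

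Internal starts were touched less often by shared gene-body sites than by myeloid-only gene-body sites. The share was 2.78% (60 of 2160 sites on the chromosomes with windows) against 8.63% (463 of 5367), an odds ratio of 0.303 (0.226 to 0.399; Fisher's exact test, two-sided, adjusted p = 2.29e-21 over 20 tests). Of AML-only gene-body sites, 14 of 830 did so (1.69%; odds ratio 1.67, 0.913 to 3.25; Fisher's exact test, adjusted p = 0.148). Shared intergenic sites have midpoints outside protein-coding genes, so the starts they touch are of another kind than internal ones. They stood at 3.26% (odds ratio 0.848, 0.586 to 1.22; adjusted Fisher p = 0.463). A difference from AML-only gene-body or shared intergenic sites thus did not pass at this number of sites. This test was chosen after the table of windows was seen.

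A pair of microRNA genes also lay inside shared gene-body sites. Mir3092 lies in Fndc3b, a gene with 6 shared sites, and Mir6541 in Wdfy2. MicroRNAs silence messenger RNAs that pair with their seed, bases 2 to 8, which is in capitals here; the 3 seeds differ.
mmu-miR-3092-3p: gAAUGGGGcuguuuccccucc
mmu-miR-3092-5p: aGGGGAAAaugccuuucuccca
mmu-miR-6541: cACAGGCAaggacuucucaag

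Shared gene-body sites coincided almost completely with their myeloid partners, although the rule asked for 1 bp alone. Their median width was 728 bp (quartiles 693 and 778 bp, range 651 to 1497 bp) and that of the partner 755 bp (703 and 820 bp). The median overlap was 699 bp, or 97.9% of the AML site, and the midpoints lay a median of 24.0 bp apart (quartiles 10.5 and 45.5 bp). In 1749 sites (78.5%) the midpoints were within 50 bp of each other. At the low end were a site in Clmp with 67 bp of overlap, and sites in Tbc1d24 and Cep85 with 108 and 109 bp. Overlap of at least 50% of both sites was met by 98.5% of shared gene-body sites and 98.1% of shared intergenic sites, and by 92.5% of shared sites at gene ends. Overlap chose all these sites, so the shares are a description.

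Sites found in both cell types were wider than sites of 1 cell type in the same kind of place. Over the median AML width of 721 bp were 54.2% of shared gene-body sites (52.1 to 56.3) and 38.0% of AML-only gene-body sites (34.7 to 41.3), an odds ratio of 1.94 (1.64 to 2.28; Fisher's exact test, adjusted p = 4.29e-15). On the myeloid side the gap was larger: 71.1% of the partners of shared gene-body sites exceeded the median myeloid width of 710 bp, against 37.4% of myeloid-only gene-body sites (odds ratio 4.11, 3.69 to 4.58; adjusted Fisher p = 8.19e-161). A wider site also has more bases with which to meet a site of the other list, and the part of this in the difference was not tested. Intergenic shared sites had a share of wide sites within 1 percentage point of that in gene bodies, at 54.8% (odds ratio 0.979, 0.867 to 1.10; Fisher's exact test, adjusted p = 0.777). Their partners stood at 71.2% (odds ratio 0.995, 0.871 to 1.14; adjusted Fisher p = 0.947). Shared gene-end sites were less often wide, at 47.5% (odds ratio 1.31, 1.07 to 1.60; Fisher's exact test, adjusted p = 0.0139). With 1 kb as the limit of a wide site, this odds ratio was 0.941 and that against AML-only gene-body sites 1.06, and neither passed (adjusted p = 0.889 for each, Fisher's exact test).

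**Figure D2:**
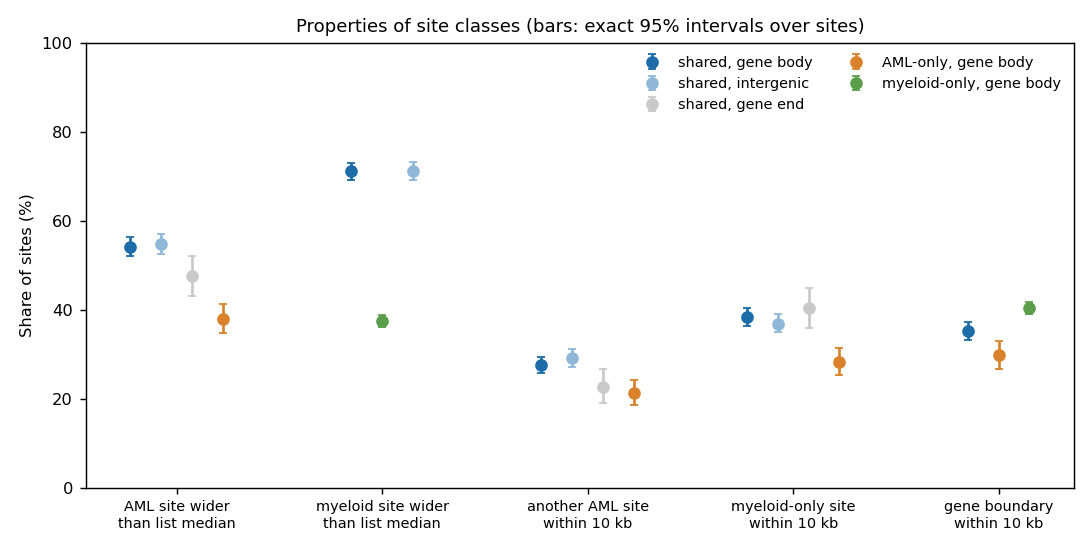
Share of sites (vertical axis, percent) with each property for shared gene-body sites (dark blue) and the classes they were compared with; bars are exact 95% intervals over sites. In the second group, points are the myeloid sites themselves, 71.1% of the partners and 37.4% of the myeloid-only sites being wide.

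Other TET2 sites lay near shared gene-body sites more often than near AML-only ones, for AML neighbours only when all sites were counted. Another AML site was within 10 kb of 27.5% of shared gene-body sites (25.7 to 29.4) and of 21.2% of AML-only gene-body sites (odds ratio 1.41, 1.16 to 1.71; Fisher's exact test, adjusted p = 9.33e-04). Counting 1 site per run of close sites, this did not pass (odds ratio 1.05; adjusted Fisher p = 0.747). A myeloid-only site was within 10 kb of 38.4% of them and of 28.3% of AML-only gene-body sites (odds ratio 1.58, 1.33 to 1.89; adjusted Fisher p = 4.51e-07). For shared intergenic sites these shares were 29.2% and 36.9%, with odds ratios of 0.923 (0.807 to 1.05) and 1.06 (0.940 to 1.20), and for shared gene-end sites 22.6% and 40.3%, with odds ratios of 1.30 (1.03 to 1.65) and 0.922 (0.752 to 1.13). None of these 4 differences passed (Fisher's exact test, adjusted p = 0.369, 0.444, 0.0505 and 0.492). With gene boundaries cleared by 2 kb in place of 1 kb, the last of them did (odds ratio 0.800; adjusted Fisher p = 0.0226). The myeloid list also sorted shared from AML-only sites. The part of this in their difference in myeloid-only neighbours was not tested. Shared gene-body sites formed 1991 runs when sites within 10 kb were joined. Of these, 212 held at least 2 sites, 18 held 3 and 3 held 4.

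The rule kept sites over 1 kb from gene boundaries, and the same limit held for the AML-only and myeloid-only gene-body sites they were compared with. The median distance to the nearest gene boundary was 17.4 kb (quartiles 6.57 and 42.2 kb), 136 sites (6.11%) were within 2 kb of one and 465 (20.9%) over 50 kb away. Just inside the limit were sites in Fyco1, Wfdc21 and Sirpa at 1007, 1010 and 1014 bp, and just outside it shared sites in Rffl, Morc3 and Kri1 at 998, 994 and 994 bp. A boundary was within 10 kb of 35.2% of shared gene-body sites, 40.4% of myeloid-only ones (odds ratio 0.800, 0.721 to 0.887; Fisher's exact test, adjusted p = 6.41e-05) and 29.8% of AML-only ones (odds ratio 1.28, 1.07 to 1.52; adjusted Fisher p = 0.0109). The shared sites thus stood between the other classes. The difference from AML-only sites did not pass when boundaries were cleared by 2 kb (odds ratio 1.20; Fisher's exact test, adjusted p = 0.0677).

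Along the gene, the sites leaned towards its start. For the 1770 sites in genes with a known strand, the midpoint lay a median of 28.4 kb downstream of the annotated start (quartiles 10.4 and 76.7 kb), at 44.0% of the gene's length. The part of the gene nearer its start held 56.1% of them (993 sites), against 60.1% of myeloid-only gene-body sites (odds ratio 0.848, 0.757 to 0.949; Fisher's exact test, adjusted p = 0.00969) and 53.8% of AML-only ones (odds ratio 1.10, 0.915 to 1.32; adjusted Fisher p = 0.444). With each gene cut into 10 equal parts from its start, part 2 held the most, 13.1%, and part 10 the fewest, 6.21%. Part 1 held 9.21% of shared gene-body sites (7.90 to 10.7) and 13.0% of myeloid-only ones (12 to 14). Both outermost parts are shortened by the 1 kb left out at gene boundaries.

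The sites were spread over many genes. Of 18328 protein-coding genes with any sequence over 1 kb from all gene boundaries, called the gene's interior here, 1657 held at least 1 shared gene-body site (9.04%, exact interval 8.63 to 9.47). Most of them, 1254, held 1, while 403 genes (2.20%) held 2 or more and 18 held 5 or more. Sites in genes with 2 or more made up 44.4% of all. Of the sites, 26 lay in 2 overlapping genes. Of the host genes, 273 (16.5%) also had an AML-only site in the interior, as did 4.06% of all genes with an interior. A myeloid-only site was there in 900 host genes (54.3%) and in 18.8% of all. The host genes were also longer than genes in general, and the part of length in these shares was not tested. In 686 genes (41.4%) the shared sites were the only interior sites in either list.

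Long genes held a shared gene-body site more often than short ones. Host genes had a median length of 67.9 kb, against 21.5 kb of all genes with an interior. The share with a site rose from 1.26% of genes up to 10 kb (0.968 to 1.61) to 31.7% of genes of 200 to 500 kb (28.3 to 35.2). Per length of interior, sites were densest in genes of 10 to 20 kb and sparsest in the longest: 3.61 sites per Mb (2.78 to 4.61) in genes up to 10 kb, 4.14 (3.58 to 4.77) in those of 10 to 20 kb, 1.88 (1.70 to 2.07) at 200 to 500 kb and 0.590 (0.483 to 0.713) in the 216 genes over 500 kb. Over all genes the density was 2.35 per Mb (2.26 to 2.45). Myeloid-only gene-body sites fell off likewise, from 12.1 to 1.43 per Mb.

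**Figure D3:**
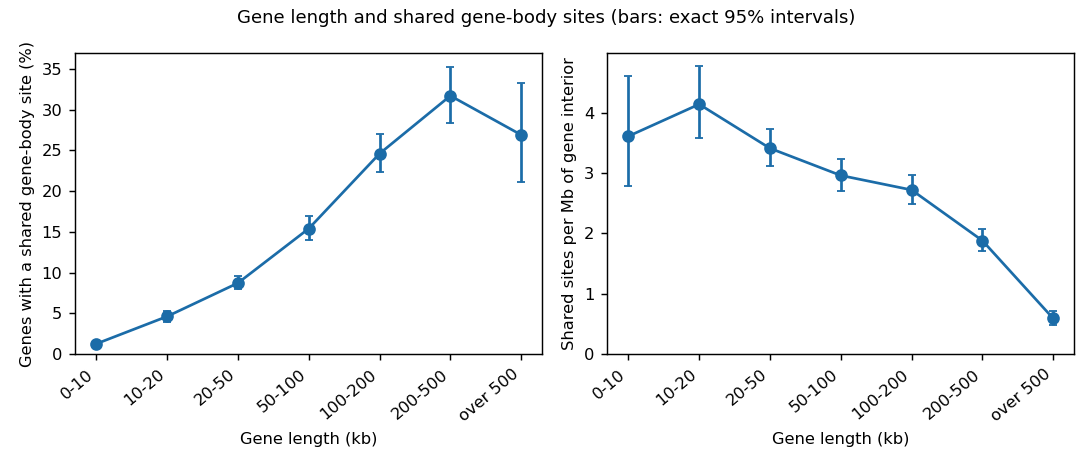
Share of protein-coding genes that held a shared gene-body site (left, percent) and density of these sites in gene interiors (right, sites per Mb) by gene length in kb; bars are exact binomial and exact Poisson 95% intervals. The share was highest, 31.7%, in genes of 200 to 500 kb, while the density was lowest, 0.590 per Mb, in genes over 500 kb.

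Among the longest genes, some held sites and some did not. The 5 longest without a shared gene-body site, named because they had none, were Ptprd, Cntnap2, Lrp1b, Dlg2 and Nrxn3, of 1.61 to 2.27 Mb and best known from neurons. Only Cntnap2 of these had any interior site, 2 myeloid-only ones. Among the 5 longest genes with a site, Lsamp (2.20 Mb) and Prkg1 (1.20 Mb) held 1 each and Macrod2 and Csmd1 2 each. Pde4d, a phosphodiesterase that breaks down cyclic AMP, held 4 in 1.30 Mb, beside 4 AML-only and 13 myeloid-only sites.

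Sgms1, which encodes a sphingomyelin synthase, held the most shared gene-body sites, 8 (exact Poisson interval 3.45 to 15.8; 0.624 at the mean density). They were spread from 10.1 to 217 kb downstream of its start on chromosome 19, and the gene also held 2 AML-only and 4 myeloid-only sites. Arhgap26, a GTPase-activating protein, held 7 in 775 kb. Ccnd3, encoding cyclin D3, which drives entry into the cell cycle, held 6 in 94.6 kb, where the mean density gives 0.217. They lay in 2 groups: 4 from 3.12 to 18.4 kb downstream of the start (chromosome 17, 47507772 to 47523773) and 2 at 90.6 and 91.8 kb, near the gene's far end. Fndc3b and Creb5, a CREB-family transcription factor, held 6 each.

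The next 13 genes held 5 shared gene-body sites each. Runx1, whose product is the AML1 part of the transgene's protein, had them from 24.3 to 205 kb downstream of its start, and the gene also held 5 myeloid-only and 0 AML-only sites. Hdac4, a histone deacetylase, had all 5 from 115 to 211 kb inside the gene. Rin3, a RAB5 exchange factor, held 3 of its 5 within 3.71 kb (chromosome 12, 102364946 to 102368655). Crispld2, a secreted protein that binds lipopolysaccharide, held 4 of its 5 within 9.82 kb at the end of a gene of 60.4 kb. The others were Tnrc6b (microRNA silencing), Ssh2 (a phosphatase that activates cofilin), Iqgap2, Chn2 (a RAC GTPase-activating protein), Ppp3ca (a calcineurin subunit), Vps13d, Itpr1 (a calcium channel), Atrnl1 and Wwox. An AML-only site lay in the interior of 4 of the 13.

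**Figure D4:**
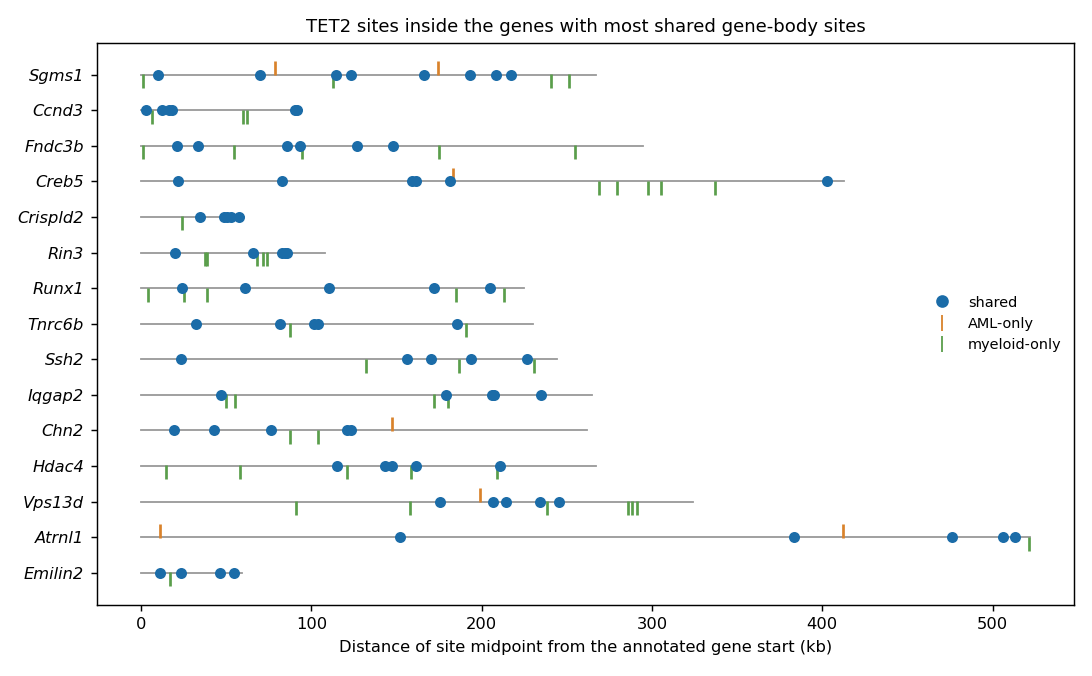
Position of TET2 sites along 15 of the genes with most shared gene-body sites, those with a known strand (horizontal axis, distance of the site midpoint from the annotated gene start in kb; grey lines are the genes). Blue points are shared, orange ticks AML-only and green ticks myeloid-only sites; Sgms1 shows 8 blue points, and the sites of Ccnd3 and Crispld2 sit close together.

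Per length, C5ar1 and Il17ra stood first among genes with 3 or more sites. C5ar1, the receptor of complement fragment C5a, held 3 in a gene of 12.8 kb, at 1.54, 5.04 and 8.66 kb from its start (278 per Mb; chromosome 7, 16250470 to 16258354). Il17ra, the interleukin 17 receptor, held 4 in 20.6 kb (216 per Mb; chromosome 6, 120466424 to 120479858), and each of the 4 lay wholly inside its myeloid partner. Neither gene had any other interior site in either list. They were followed by the predicted gene Gm46963 (140 per Mb), by Itgb2, the beta chain of the leukocyte integrins (3 sites, 89.9 per Mb), by Crispld2 (85.7), and by Lasp1, an actin-binding protein (79.5). Emilin2, a matrix glycoprotein gene, held 4 sites (69.7 per Mb). Tbc1d2, Abcd2 and Plekhg3 held 3 each, at 68.3, 68.0 and 66.4 per Mb. With so few sites the intervals are wide: 3 sites allow 0.619 to 8.77 and 4 allow 1.09 to 10.2.

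The widest shared gene-body sites were made of 2 merged rows each. They lay in Cradd (1497 bp), Marchf4 (1471 bp), Smyd3 (1467 bp), Dgkg (1424 bp) and Abr (1400 bp). In Cradd, Marchf4 and Smyd3 the myeloid partner covered 54.5%, 51.9% and 47.8% of the AML site, and in Dgkg and Abr 89.3% and 99.1%. Of all shared gene-body sites, 32 were merged from 2 rows.

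Genes of the actin skeleton and its regulators formed the list with the largest share of occupied members. Of its 51 genes, 32 held a shared gene-body site (62.7%), against 9.04% of all genes, and 17 held 2 or more. The density was 7.96 sites per Mb (6.13 to 10.2), against 2.35 over all genes. After Arhgap26 came Iqgap2, a scaffold of RAC and CDC42, and Ssh2, with 5 each. Elmo1, a partner of DOCK exchange factors, held 3. The median interior of these genes was 97.9 kb, against 19.3 kb over all genes.

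Genes of phosphoinositide and calcium signalling came next by share, with 26 of 48 (54.2%, against 9.04% of all genes). They held 6.22 sites per Mb (4.56 to 8.30). Itpr1, the receptor through which inositol trisphosphate releases calcium, held 5 shared gene-body sites and 6 myeloid-only ones. Inpp5d, the phosphatase SHIP1, Itpkb, an inositol trisphosphate kinase, and Itpr2 held 3 each. These genes too were long, with a median interior of 104 kb. Of all genes of 100 to 200 kb 24.6% held a site.

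Genes of myeloid transcription factors held 33 sites in 2.99 Mb, or 11.1 per Mb (7.61 to 15.5). Of 43 genes 19 held a site (44.2%, against 9.04% of all genes). Besides Creb5 and Runx1, the ETS factor gene Fli1 and Ikzf1, which encodes Ikaros, held 3 each, beside 2 myeloid-only and 0 AML-only sites in either gene. Fli1 had its 3 within 8.27 kb (chromosome 9, 32502094 to 32510359).

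Genes of mature myeloid cells held shared gene-body sites more often than the 9.04% of all genes. Per length they also stood above the 2.35 per Mb of all genes. Of 25 granule and neutrophil genes with an interior, 6 held a site (24.0%), and 9 sites in 0.327 Mb gave 27.5 per Mb (12.6 to 52.2). Itgb2 held 3, Ncf4, a subunit of the phagocyte oxidase, 2, and Cd177 and the formyl peptide receptor gene Fpr2 1 each. The interiors of the 25 genes held 13 myeloid-only sites, or 39.7 per Mb against 5.85 over all genes, and 0 AML-only sites. Of 25 monocyte and macrophage genes 8 held 1 site each (32.0%), at 9.59 per Mb (4.14 to 18.9). Among them were Cd300a, the beta-glucan receptor gene Clec7a, the M-CSF receptor gene Csf1r and Cx3cr1. Of 19 genes of mast cells, basophils and eosinophils 5 held a site (26.3%), at 20.3 per Mb (8.77 to 40). Alox5, which starts leukotriene synthesis, held 3, and Hdc, which makes histamine, held 2. Cpa3, Il1rl1 and Siglecf (the last added after its value was seen) held 1 each. Myeloid-only gene-body sites stood at 10.8 per Mb in the monocyte and macrophage genes and at 30.5 in the mast cell, basophil and eosinophil genes. With gene boundaries cleared by 5 kb, 2 of the granule and neutrophil genes and 4 of the monocyte and macrophage genes held a site. So did 3 of the mast cell, basophil and eosinophil genes. Median interiors at the 1 kb limit were 8.06, 13.1 and 11.1 kb in the same order. How many genes of each list had sequence left at 5 kb is not given here.

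Cytokine signalling and adhesion genes stood above the mean density by smaller steps. The share of all genes with a site was 9.04%. Of 36 cytokine receptor and signalling genes, chosen around the cytokines of the medium but also holding the GM-CSF receptor gene Csf2ra, 7 held a site (19.4%; 5.50 per Mb, 2.75 to 9.84). Bcl2l1, an inhibitor of apoptosis, Cblb, a ubiquitin ligase, Gab2, an adaptor, and Ptpn6, the phosphatase SHP-1, held 2 each. These 36 genes had 43 myeloid-only gene-body sites, 21.5 per Mb against 5.85 over all genes. Of 40 integrin and adhesion genes 10 held a site (25%; 4.96 per Mb, 2.89 to 7.94). After Itgb2, Pxn, which encodes paxillin, held 3, and Apbb1ip, a RAP1 effector, and Itgb3 2 each.

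For genes of stem cells and leukemia, chromatin modifiers and DNA methylation, the interval of the density included the 2.35 per Mb of all genes. Of all genes, 9.04% held a site. Of 31 stem, progenitor and leukemia genes 9 held a site (29.0%), at 3.87 per Mb (2.11 to 6.49). Angpt1 and Cdk6, a kinase that binds D cyclins, held 3 each, Erg 2 and Cd34 1. Of 53 chromatin modifier genes also 9 held a site (17.0%), at 2.85 per Mb (1.63 to 4.63), among them Hdac4 with 5, Chd7 with 2 and Arid1b with 1. The median interior of the chromatin modifier genes was 78.2 kb, and of all genes of 50 to 100 kb 15.4% held a site. Of 21 genes that place, read or remove DNA methylation 4 held 1 each (19%; 5.46 per Mb, 1.49 to 14.0). They were Tet1, Tdg, which excises oxidized methylcytosine, the methyl-binding protein gene Mbd2 and Dnmt3l. Tet2 itself held 0 shared gene-body sites, where the mean density gives 0.187, and had no other interior site in either list.

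For lists of other tissues and lineages, the density was below the mean over all genes, but its interval lay below only for muscle and long neuronal genes. The share of genes with a site was not always below that of all genes. In 18 B cell genes, 18 erythroid and megakaryocyte genes and 24 liver genes there were 0 shared gene-body sites, with upper limits of 3.05, 4.57 and 7.45 per Mb that all lie above the mean density, so these counts of 0 say little. Of 26 T and NK cell genes 3 (11.5%) held 1 each (2.02 per Mb, 0.417 to 5.92), among them Ets1 and Tox. Of 30 muscle genes Ryr2 and Sgcz (6.67%) held 2 each (0.910 per Mb, 0.248 to 2.33). Of 51 long neuronal genes 7 held a site (13.7%) and 5 held 2 or more (9.80%), shares above the 9.04% and 2.20% of all genes. Their median interior was 1058 kb, and of all genes over 500 kb 26.9% held a site. Per length they held 12 sites in 52.1 Mb, or 0.230 per Mb (0.119 to 0.402), against 0.590 in all genes over 500 kb. Csmd1, Dscam, Galntl6 and Kcnh7 held 2 each. Myeloid-only gene-body sites were also sparse in these genes, at 0.403 per Mb.

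**Figure D5:**
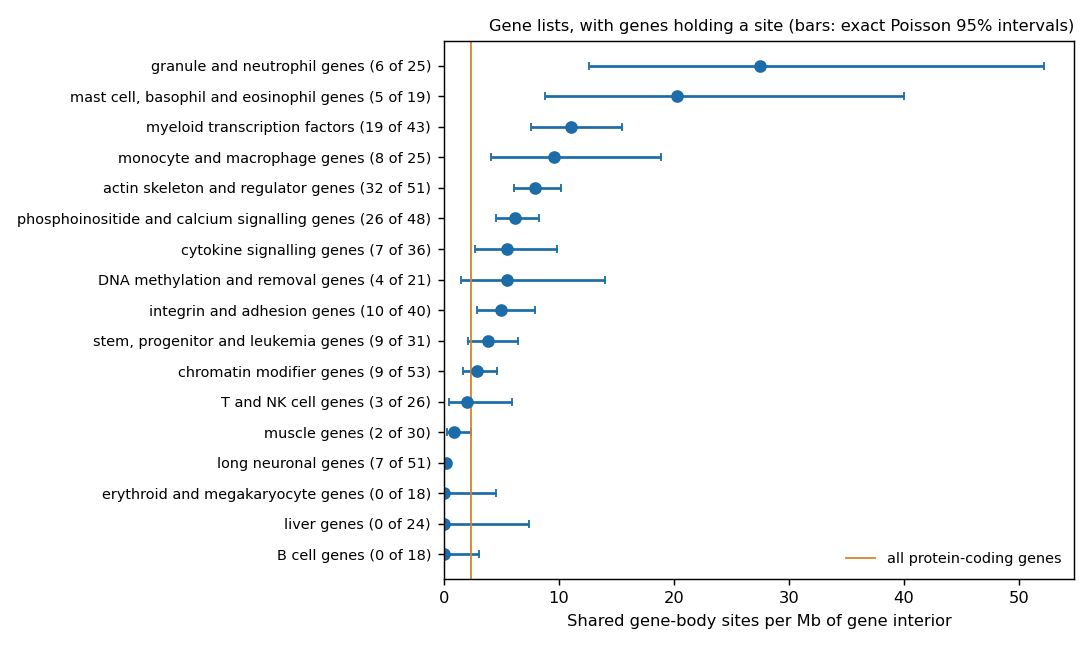
Shared gene-body sites per Mb of gene interior (horizontal axis) for each gene list, with the number of genes that held a site of those with an interior; bars are exact Poisson 95% intervals and the orange line is the density over all protein-coding genes, 2.35 per Mb. Granule and neutrophil genes stand at 27.5 and long neuronal genes at 0.230.

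An AML site at the gene's own start was rare among genes with a shared gene-body site and among all genes. Of 1336 host genes with a known strand, 52 had one within 1 kb of the start (3.89%, 2.92 to 5.07), against 2.65% of all genes with an interior and a known strand. A myeloid site was at the start of 376 (28.1%, 25.7 to 30.6), against 23.4% of all such genes. At the far end of the gene the shares were 1.57% and 4.12% of host genes, against 0.868% and 2.64% of all such genes. Host genes are longer than the rest, and the part of length in these shares was not tested.

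Across chromosomes the density of shared gene-body sites ran from 1.62 per Mb of interior on chromosome 3 (1.29 to 2.01) to 3.56 on chromosome 19 (2.89 to 4.35). Among AML gene-body sites, the share that was shared ran from 65.1% on chromosome 3 to 80.0% on chromosome 19, and over all chromosomes it was 72.3% (70.7 to 73.9). It was 69.1% (67.5 to 70.8) for intergenic and 82.8% (79.5 to 85.8) for gene-end AML sites, given as a description since sharing chose the members.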

How the data were processed

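The authors deposited a single list of TET2 sites for each cell type, whose columns give positions only (chromosome, start, end). The tools named in the submitters' processing notes are Trimmomatic, Bowtie2 and MACS2, and the build is mm10. The sources used here do not give versions, thresholds, the origin of start coordinates, the pooling of replicates or the use of knockout, IgG and input libraries. The 7002 AML and 19706 myeloid rows were cut to chromosomes 1 to 19 (6877 and 19411 rows) and overlapping rows were merged. Genes, start windows and microRNAs came from RefSeq tables of GRCm38.p6. Strand was taken from the start windows, and genes without one were left out of strand-based values.

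Two-sided Fisher's exact tests compared site classes, and their p-values were adjusted over 20 tests by Benjamini and Hochberg's method. Shares carry exact binomial and counts exact Poisson 95% intervals, which cover counting error only. The planned motif scan of all sites needs a genome and was replaced by one of start windows. The sites and the 17 gene lists (597 entries, 1 without a gene) were chosen with earlier results of these data known, so lists have counts and no test. Genes named are the 20 with most sites, up to 4 per list with most sites, the 10 densest, and those of the widest, longest, most clustered and borderline cases; a few genes that this rule names are not reported here. The scripts (Python 3.11.15, pandas 2.3.3, scipy 1.17.1) were tested on simulated sites.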

Additional observations from a re-analysis of the deposited data

How the results depend on the processing

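The number of shared gene-body sites ran from 1802, with gene boundaries cleared by 5 kb, to 2526, with all annotated genes, and that of host genes from 1312 to 2021. Overlap of 50% of both sites gave 2193 sites and unmerged rows 2260. Of 88 alternative values of the 20 tests, 82 kept their direction and side of the threshold or missed it in both settings. With 1 kb as the limit of a wide site, the odds ratio against shared gene-end sites turned to 0.941 and that against AML-only gene-body sites was 1.06, neither passing. Another 4 results crossed the threshold: covering by 50% of the shorter site against gene-end sites (2.67, a description since overlap chose the sites), myeloid-only neighbours against gene-end sites with boundaries cleared by 2 kb (0.800, now passing), nearness to a boundary against AML-only sites at 2 kb (1.20), and AML neighbours against AML-only sites with 1 site per run (1.05). With boundaries cleared by 5 kb, 2 granule, 4 monocyte and 3 mast cell genes held a site. The causes of these changes were not tested. Motif windows of 200 and 500 bp around site midpoints were not run, as they need a genome. No paired analysis was possible because the lists hold no value per library; for the same reason no replicate could be left out, and depth per site is unknown.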
